A study of Homo sapiens with 4 samples.

Results

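Semaphorins and plexins, and ephrins and Eph receptors, are cell surface guidance systems. Here 48 genes of these 4 families were compared between HeyA8-MDR cells labelled miR204 and control cells. Within these families the members were taken by gene symbol from 17687 distinct symbols on the array. They were 19 semaphorins, 9 plexins, 8 ephrins and 12 Eph receptors, each represented by 1 feature, and antisense genes were left out. HeyA8-MDR is a multidrug-resistant human ovarian carcinoma line, grown in both groups with 300 ng/ml paclitaxel and 15% serum. Control cells received a control microRNA inhibitor and the other cells an inhibitor of miR-204-5p, an antisense oligonucleotide that binds the microRNA, and each group had 2 Affymetrix Human Clariom S arrays. Because the treatment note is identical on all 4 arrays and mentions only the miR-204-5p inhibitor, the groups rest on the sample titles and the design text. A single line was used. Whether the 2 arrays of a group came from separate cultures is not stated, and the p-values thus cover array-to-array spread that may be technical. The study asked which transcripts differ after loss of miR-204-5p, as part of work on microRNAs linked to angiogenesis.

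Semaphorins are secreted or membrane-bound proteins that signal through plexins, large receptors whose cytoplasmic part acts on small GTPases, often with a neuropilin as co-receptor for the secreted class 3 members. Ephrins are held in the membrane by a lipid anchor (class A) or a transmembrane segment (class B), and they activate Eph receptor tyrosine kinases on neighbouring cells while also signalling back into their own cell. Both systems steer axons in development, and in vessels and tumours they act on cell repulsion, adhesion and migration.

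The microRNA that the inhibitor binds carries a seed, bases 2 to 8 of the mature RNA, that pairs with messenger RNAs. Of the mature human microRNAs in the RefSeq table (GRCh38.p14), 2 share this seed, and they are shown to identify the agent, with the seed in capitals. They lie at chr9:70810031-70810052 and chr15:31065095-31065116, both on the minus strand. The level of miR-204-5p and sites for it in the members' transcripts were not analysed here.
hsa-miR-204-5p: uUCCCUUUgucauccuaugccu
hsa-miR-211-5p: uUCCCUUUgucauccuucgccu

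The upstream stretches of 5 members are printed as examples, although no member passed the threshold over all features given below. EPHB1, PLXNA4 and SEMA3E had the 3 lowest moderated statistics, SEMA4D shares a motif with SEMA3E, and EPHA5 had the highest difference with all 4 arrays. Each is the 250 bases before the RefSeq start of the gene on GRCh38.p14, read along the gene's strand. The positions are chr3:134795010-134795259 on the plus strand for EPHB1 and, all on the minus strand, chr7:132576471-132576720 for PLXNA4, chr7:83649140-83649389 for SEMA3E, chr9:89495657-89495906 for SEMA4D and chr4:65670490-65670739 for EPHA5. Capitals mark the GC box (GGGCGG) and the E-box (CACGTG) on either strand.
EPHB1 promoter: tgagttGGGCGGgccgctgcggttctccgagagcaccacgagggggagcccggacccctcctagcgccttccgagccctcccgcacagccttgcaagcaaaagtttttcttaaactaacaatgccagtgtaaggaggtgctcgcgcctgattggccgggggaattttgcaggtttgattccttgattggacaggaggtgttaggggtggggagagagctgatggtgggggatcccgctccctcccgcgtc
PLXNA4 promoter: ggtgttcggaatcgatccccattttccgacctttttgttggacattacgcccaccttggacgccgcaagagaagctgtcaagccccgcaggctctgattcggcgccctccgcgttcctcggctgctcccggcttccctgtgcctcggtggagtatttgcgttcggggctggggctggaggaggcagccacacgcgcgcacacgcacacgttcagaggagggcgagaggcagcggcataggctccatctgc
SEMA3E promoter: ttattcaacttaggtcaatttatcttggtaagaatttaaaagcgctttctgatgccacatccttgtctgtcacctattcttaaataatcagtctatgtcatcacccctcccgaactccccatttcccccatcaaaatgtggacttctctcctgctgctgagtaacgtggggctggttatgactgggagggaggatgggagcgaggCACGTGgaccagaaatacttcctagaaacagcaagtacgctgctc
SEMA4D promoter: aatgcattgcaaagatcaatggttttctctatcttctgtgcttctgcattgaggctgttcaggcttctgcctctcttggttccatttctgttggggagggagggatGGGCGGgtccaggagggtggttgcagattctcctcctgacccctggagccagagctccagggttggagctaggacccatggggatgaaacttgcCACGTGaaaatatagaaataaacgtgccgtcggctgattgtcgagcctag
EPHA5 promoter: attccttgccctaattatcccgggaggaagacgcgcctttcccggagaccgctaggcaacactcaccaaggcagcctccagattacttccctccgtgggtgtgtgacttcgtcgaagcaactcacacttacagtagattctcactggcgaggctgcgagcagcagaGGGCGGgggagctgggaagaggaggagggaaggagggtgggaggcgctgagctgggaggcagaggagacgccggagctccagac

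Over the 43 members with an entry in the RefSeq promoter table, 34 held a GC box in these 250 bases, against 42.3% of all 27305 promoters, and their median GC content was 66.4% against 58.0%. An E-box stood in 4 of the 43 (EPHA8, SEMA3E, SEMA4D and SEMA6D), against 6.49% of all promoters. The EGR site GCGGGGGCG, which can overlap a GC box, was found in 7, against 4.68%. The CHR element TTTGAA was found in 2, against 13.6%. The AP-1 site TGACTCA, the E2F site TTTGGCGC and the CHOP-ATF4 composite TGATGCAA were found in 0 of 43, against 4.16%, 0.553% and 0.82% of all promoters. The background was every promoter in that table and was not matched to the members by kind of gene. These are matches of letters in a short window and describe no binding.

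The 4 arrays had medians from 5.59 to 5.68 log2 units, with Pearson correlations across 21448 features of 0.9952 between the controls, 0.9862 between the miR204 arrays and 0.9839 to 0.9888 between groups. The median difference over all features, miR204 minus control, was -0.07, and 59.5% of features were lower with the inhibitor. That share was 74.2% among features above the median level, and 50.6% over all features after quantile normalization. Of the epithelial and ovarian carcinoma markers, the keratins KRT8 (11.28 to 11.45) and KRT18 (10.74 to 10.99) and the Müllerian factor PAX8 (8.31 to 8.51) read well above the median feature, while EPCAM (2.93 to 3.87) and the epithelial cadherin CDH1 (2.72 to 3.50) lay in the dimmest 25% of features, below 3.965. Of the 7 markers on that list, 2 had an unadjusted p under 0.05 in limma, and both were lower. WT1 read 6.81 and 6.71, then 6.11 and 6.3 with the inhibitor (-0.56, unadjusted p = 0.0082, adjusted p = 0.18). MUC16, below the median feature, read 4.68 and 4.86, then 4.35 and 4.42 (-0.39, unadjusted p = 0.036, adjusted p = 0.25). The mesenchymal markers VIM (means 11.985 and 11.73) and CDH2 (9.255 and 8.95) were lower without overlap, by -0.26 and -0.31. The efflux pump ABCB1 read 7.55 to 7.77. Among markers of other cell types, the sums of log2 values over each list were 34.9 to 35.0 in controls and 33.97 to 34.32 with the inhibitor for 7 endothelial genes, 15.38 to 15.6 and 15.87 to 16.41 for 4 leukocyte genes, 24.77 to 25.43 and 23.84 to 24.80 for 5 fibroblast genes, and 18.04 to 18.39 and 16.99 to 17.03 for 3 neuronal genes. Defining genes of one list differed in level, with PTPRC, TEK and LUM at or below 3.16 on every array but VWF at 6.45 to 6.53, COL1A1 at 5.66 to 6.31, COL1A2 at 7.60 to 7.99 and RBFOX3 at 6.85 to 7.63. The endothelial cadherin CDH5 read 8.13 and 8.06 in the controls, against 7.01 and 7.03 with the inhibitor. Its difference was -1.08 (unadjusted p = 0.00014, adjusted p = 0.1 in limma). Of the other endothelial genes, PECAM1 (0.47), CLDN5 (0.21) and VWF (0.05) had positive differences, and EMCN (-0.18), ESAM (-0.16) and TEK (-0.11) negative ones. The neuronal gene RBFOX3 (-0.70, unadjusted p = 0.0019, adjusted p = 0.14 in limma) was also lower without overlap. So was the fibroblast gene PDGFRA (-0.59, unadjusted p = 0.0054, adjusted p = 0.17). CDH5, RBFOX3 and PDGFRA were the only genes of their lists at an unadjusted p under 0.05, and no leukocyte gene was. The part of these marker differences in the results below was not tested.

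No guidance gene passed the threshold over all features, an adjusted p of 0.05 in limma's moderated test with Benjamini-Hochberg adjustment, which 0.0513% of features passed. The lowest adjusted p among the 48 was 0.13. In simulated sets with 200 changed features among 21448, 0% of features changed 2-fold passed that threshold, against 97.4% of those changed 4-fold. These shares depend on the number of changed features, which is not known for these data. The absence of passing members says little about differences near 2-fold or smaller. At an unadjusted p under 0.05, 11 of the 48 differed, 1 higher and 10 lower, or 22.9% of the members against 17.9% of all features. By direction the background was 5.11% of features higher and 12.8% lower, and the members gave 20.8% lower. Values of the groups did not overlap for 28 members, 8 higher and 20 lower, or 58.3% of members, against 50.3% of features (16.5% higher and 33.8% lower). The median difference of the members was -0.11, beside -0.07 over all features. Rescaling moved the split of 1 higher and 10 lower at an unadjusted p under 0.05. It was 2 higher and 7 lower after quantile normalization (6.57% and 7.1% of features), 3 and 7 with cyclic loess (6.97% and 6.93%), and 5 and 10 with equal array medians (7.49% and 9.06%). Members past an adjusted p of 0.05 numbered 6 where limma's prior followed the intensity (7.11% of features), 4 of 15 after dim features up to the median were left out (9.54%), and 1 where that trend was joined to quantile normalization (2.61%). All of these were lower. The count of 11 was 5 without control array 1 (5.91% of features), 4 without control array 2 (4.31%), 16 without miR204 array 1 (18.8%) and 19 without miR204 array 2 (27.4%). The median of -0.11 became -0.18, -0.04, -0.11 and -0.02 in the same order. In the deposited values the shares lay near the background. In some other settings they stood farther from it, as with 4 of 15 against 9.54%. The counts moved with the setting and no test was run over the members, so they are not a result about the families. The values below describe single genes.

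**Figure D1:**
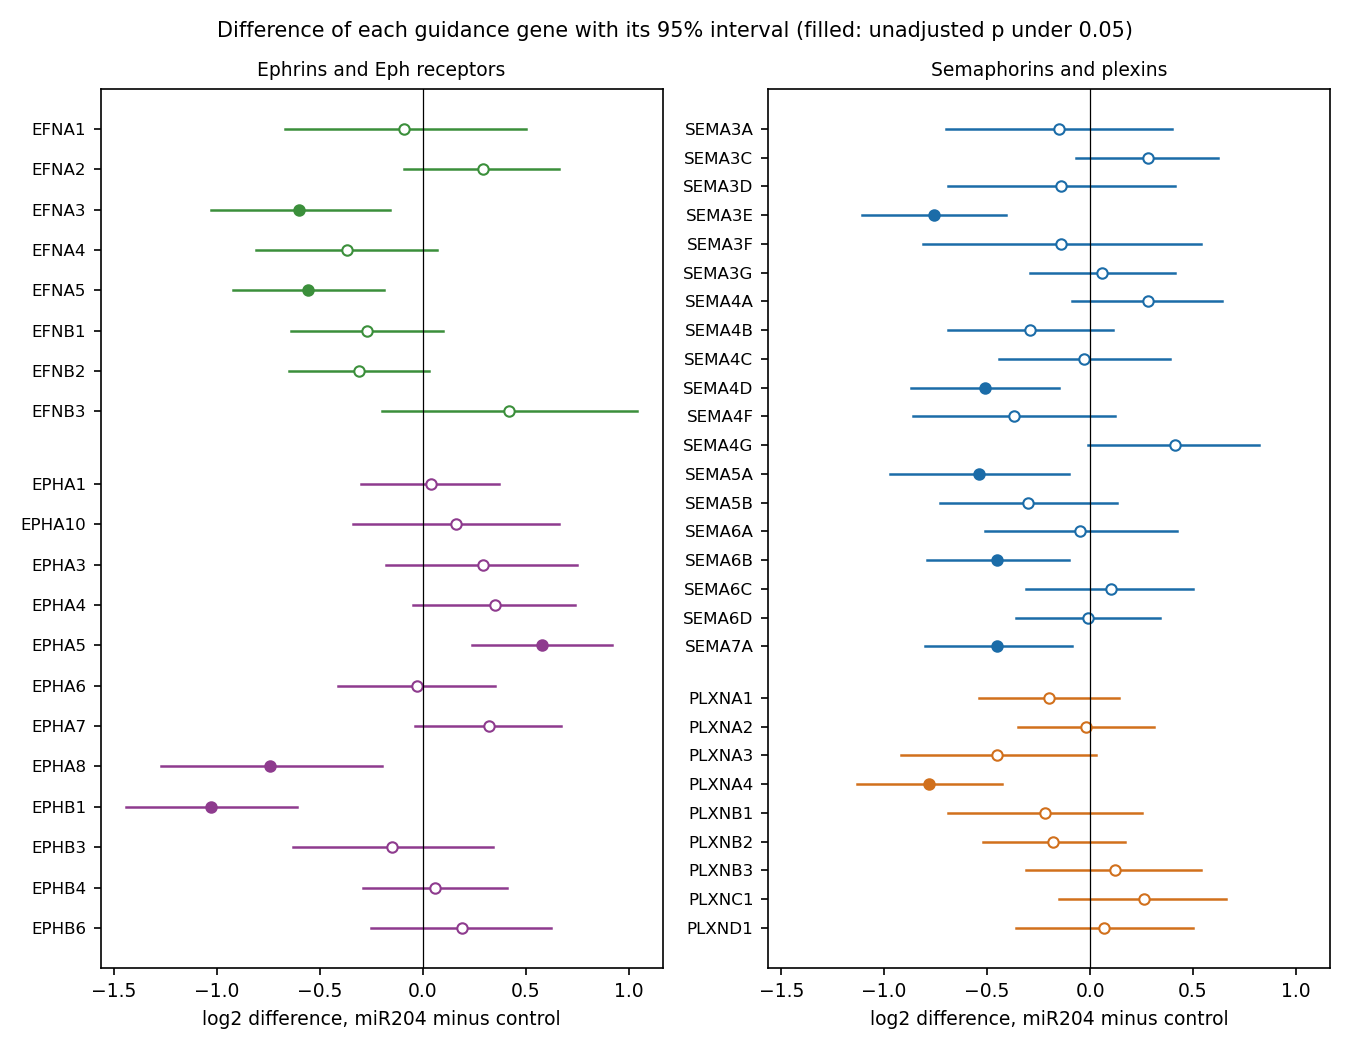
Log2 difference between miR204 and control arrays (x axis) for each of the 48 guidance genes (y axis), with its 95% interval from limma and n = 2 arrays per group. Filled points mark the 11 members with an unadjusted p under 0.05, of which EPHB1 lies farthest to the left at -1.03 and EPHA5 is the filled point to the right of 0, at 0.58.

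EPHB1, a receptor tyrosine kinase for class B ephrins, had the largest difference of all members with all 4 arrays. It read 8.43 and 8.57 in the controls, against 7.29 and 7.66 with the inhibitor. Both inhibitor arrays lay below both controls. In a lysate of many cells, fewer cells with the transcript and less of it per cell cannot be told apart, here and for the other members. The means were 8.50 ± 0.099 and 7.475 ± 0.262 (SD, n = 2 per group), a log2 difference of -1.03 (SE 0.175, 95% interval -1.44 to -0.61), or 2.03-fold lower. Its unadjusted p in limma was 0.00071 and its adjusted p 0.13. With the trend in the prior the adjusted p was 0.0017, without the features up to the median level it was 0.017, and after quantile normalization plus trend it was 0.007, with a difference of -0.84. Among the settings with all 4 arrays its lowest and highest adjusted p were 0.0017 and 0.37, and without any 1 array the difference lay between -1.21 and -0.84.

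The other class B receptors reported here differed less. EPHB4, the receptor known from the border between arteries and veins, read 5.97 and 6.15 in the controls, against 6.16 and 6.08 with the inhibitor, so the groups overlapped (0.06, SE 0.148, 95% interval -0.29 to 0.41). EPHB3 gave -0.15 (SE 0.204) and EPHB6, whose kinase domain lacks activity, gave 0.19 (SE 0.182), and both overlapped between groups. EPHB1 was the only class B receptor of the 4 whose groups did not overlap.

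Of the 8 class A receptors, 6 were higher and 2 lower, where 40.5% of all features were higher. All 8 lay below the median level. Above that level 25.9% of features were higher, so among dimmer features the share exceeded 40.5%. The split was 5 and 3 after quantile normalization or cyclic loess, where 50.6% and 49.6% of features were lower. It was 7 and 1 with equal array medians (50.7% lower). The class A median of 0.22 was 0.10 without control array 2, 0.13 without miR204 array 1 and 0.40 without miR204 array 2. The 2 with an unadjusted p under 0.05 differed in opposite directions. EPHA5, a receptor best known from the brain, read 3.08 and 2.99 in the controls, against 3.57 and 3.66 with the inhibitor, without overlap. Its difference was 0.58 (SE 0.143, 95% interval 0.24 to 0.92, unadjusted p = 0.0051, adjusted p = 0.17 in limma), 1.49-fold higher. All 4 values lay in the dimmest 25% of features, where the size of a fold is uncertain without a detection call. EPHA8, another class A receptor of the nervous system, read 4.91 and 5.10 in the controls, against 3.96 and 4.58 with the inhibitor. The inhibitor arrays were lower but stood apart from each other, and the difference of -0.74 (SE 0.224, 95% interval -1.27 to -0.20, adjusted p = 0.20) was -0.43 without miR204 array 1 and -1.05 without miR204 array 2.

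EPHA4, a receptor that binds ephrins of both classes, and EPHA7 also had both inhibitor arrays above both controls. EPHA4 read 5.21 and 5.35, then 5.78 and 5.47 (0.35, SE 0.166, adjusted p = 0.33), and EPHA7 read 4.30 and 4.24, then 4.69 and 4.48 (0.32, SE 0.151, adjusted p = 0.33). Neither passed at an unadjusted p under 0.05, though EPHA4 did so with cyclic loess and both did with equal array medians. EPHA1, EPHA3, EPHA6 and EPHA10, the last without an active kinase, overlapped between groups, with differences from -0.03 (EPHA6) to 0.29 (EPHA3). EPHA1, EPHA3 and EPHA6 lay in the dimmest 25% of features.

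Ephrins, the ligands of these receptors, were lower in 6 of 8 cases, where 59.5% of all features were lower. Their median was -0.29. After quantile normalization the median was -0.12 with the same 6 to 2 split, where 50.6% of features were lower. EFNA5, a lipid-anchored ligand of class A receptors, read 8.37 and 8.53 in the controls, against 7.81 and 7.98 with the inhibitor. The groups did not overlap, and the difference was -0.56 (SE 0.152, 95% interval -0.92 to -0.19, unadjusted p = 0.0087, adjusted p = 0.18), 1.47-fold lower. The intensity trend brought it past the threshold (adjusted p = 0.017), as did the fit over features above the median level (0.04), within a span of 0.017 to 0.38 for all 4 arrays. After quantile normalization the difference was -0.36.

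EFNA3 read 4.45 in both controls, against 4.07 and 3.64 with the inhibitor (-0.60, SE 0.181, unadjusted p = 0.014, adjusted p = 0.20). Its inhibitor mean of 3.855 lay in the dimmest 25% of features, so this size is uncertain, and it was -0.38 without miR204 array 2 and -0.81 without miR204 array 1. EFNA4, its direct neighbour on chromosome 1, read 5.59 and 5.69, then 5.05 and 5.49 (-0.37, SE 0.185, adjusted p = 0.34). RefSeq lists a read-through gene, EFNA4-EFNA3, over this pair, and whether the probes separate the transcripts is not given in the sources used here. EFNA1, on the other side of EFNA3, overlapped between groups (3.98 and 4.14, then 4.34 and 3.61), and EFNA2 was higher on both inhibitor arrays (0.29, SE 0.158, adjusted p = 0.39).

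Among the class B ephrins, EFNB2, the arterial ligand of EPHB4, read 7.72 and 7.84 in the controls, against 7.50 and 7.44 with the inhibitor (-0.31, SE 0.143, unadjusted p = 0.068, adjusted p = 0.32). EFNB1 read 7.29 and 7.51, then 7.20 and 7.06 (-0.27, SE 0.156, adjusted p = 0.40). For both genes the inhibitor arrays lay below the controls by less than needed to pass. EFNB3 gave 0.42 (SE 0.26) with overlapping groups in the dimmest 25% of features, and it was between 0.08 and 0.76 without any 1 array.

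**Figure D2:**
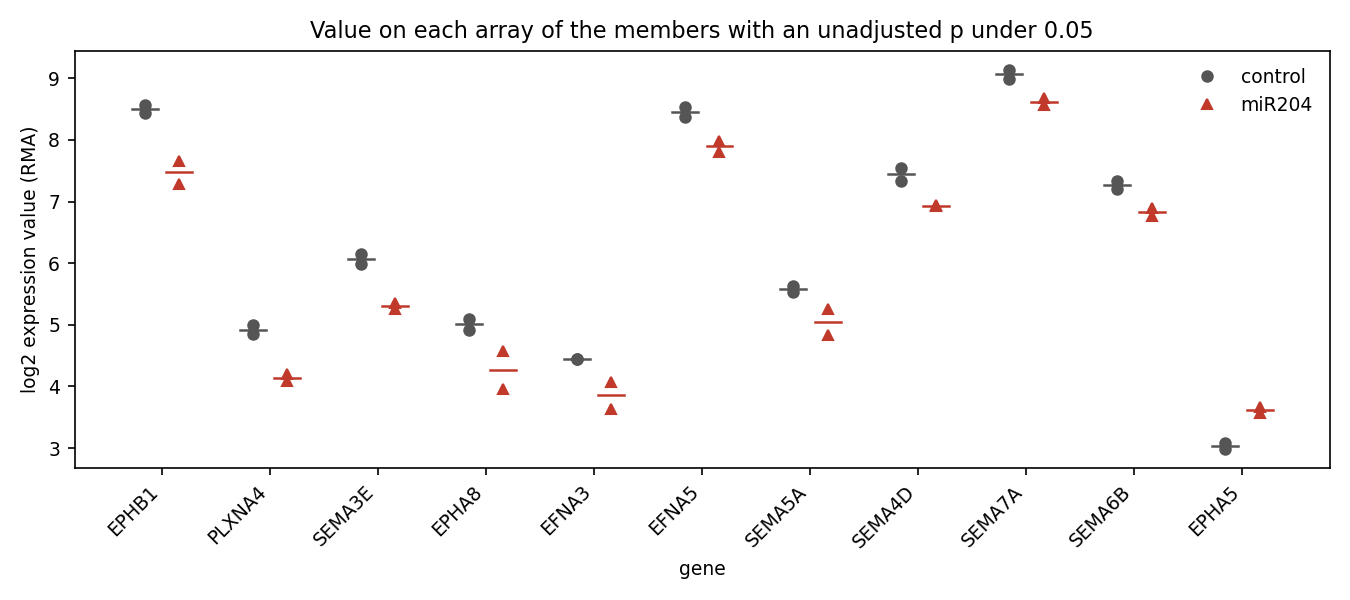
Log2 expression value (y axis) on each of the 4 arrays for the 11 members with an unadjusted p under 0.05 (x axis), with circles for control arrays, triangles for miR204 arrays and short lines for the means of 2. The groups do not overlap for any of the 11, and the 2 EPHA8 inhibitor values of 3.96 and 4.58 lie the farthest apart.

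Secreted class 3 semaphorins, which signal through neuropilins and class A plexins or directly through PLXND1, were led by SEMA3E. SEMA3E, a repellent for growing vessels and axons, read 5.99 and 6.15 in the controls, against 5.26 and 5.36 with the inhibitor, without overlap. The means were 6.07 ± 0.113 and 5.31 ± 0.0707 (SD, n = 2 per group), a difference of -0.76 (SE 0.148, 95% interval -1.11 to -0.41, unadjusted p = 0.0015, adjusted p = 0.14), 1.69-fold lower. Its adjusted p was 0.026 with the intensity trend and 0.02 over features above the median level, within a span of 0.02 to 0.35 for all 4 arrays. The difference lay between -0.84 and -0.68 without any 1 array and was -0.69 after quantile normalization.

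SEMA3E lies in a group of 4 class 3 genes on chromosome 7, next to SEMA3A, with SEMA3D beyond SEMA3A and SEMA3C 3 protein-coding genes from SEMA3E. SEMA3A, the founding repellent of the class, read 4.56 and 5.16 in the controls, against 4.87 and 4.55 with the inhibitor (-0.15, SE 0.231). SEMA3D gave -0.14 (SE 0.23) at levels in the dimmest 25% of features. SEMA3C, linked to migration of tumour and neural crest cells, read 7.79 in both controls, against 8.0 and 8.13 with the inhibitor (0.28, SE 0.143, unadjusted p = 0.097, adjusted p = 0.36). SEMA3C was thus higher and SEMA3E lower on both inhibitor arrays, while the other 2 neighbours overlapped between groups. After quantile normalization SEMA3C differed by 0.45, at an unadjusted p of 0.013. SEMA3F (-0.14, SE 0.284) and SEMA3G (0.06, SE 0.146) also overlapped, and SEMA3F read 4.28 on miR204 array 1 but 3.39 on miR204 array 2.

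Of the 6 membrane-bound class 4 semaphorins, SEMA4D had the lowest difference. SEMA4D, the ligand of PLXNB1 that is known for effects on vessels and immune cells, read 7.55 and 7.34 in the controls, against 6.94 and 6.93 with the inhibitor. Both inhibitor arrays were lower, by -0.51 on average (SE 0.15, 95% interval -0.87 to -0.15, unadjusted p = 0.012, adjusted p = 0.19), or 1.42-fold. The adjusted p was 0.042 with the intensity trend and 0.046 over features above the median level, within a span of 0.042 to 0.38, and the difference was -0.35 after quantile normalization. SEMA4B (8.18 and 8.24, then 8.09 and 7.75) and SEMA4F (5.14 and 5.13, then 4.48 and 5.05) were also lower on both inhibitor arrays without passing. With the intensity trend the unadjusted p of SEMA4B in limma was 0.047. SEMA4A (5.28 and 5.42, then 5.73 and 5.52) and SEMA4G (3.29 and 3.50, then 3.96 and 3.64) were higher on both inhibitor arrays. SEMA4G, at 0.41 (SE 0.173, unadjusted p = 0.053, adjusted p = 0.29), lay in the dimmest 25% of features. SEMA4C, a ligand of PLXNB2, gave -0.03 (SE 0.176).

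The remaining membrane-bound classes 5, 6 and 7, of 2, 4 and 1 members, had 3 members at an unadjusted p under 0.05. Each was lower, where 12.8% of all features were lower at that p. SEMA7A, the lipid-anchored semaphorin that binds PLXNC1 and integrins, read 8.99 and 9.14 in the controls, against 8.56 and 8.68 with the inhibitor (-0.45, SE 0.148, 95% interval -0.80 to -0.09, adjusted p = 0.22). The threshold was passed with the intensity trend (adjusted p = 0.026, span 0.026 to 0.48), and its difference was -0.24 after quantile normalization. SEMA6B, a transmembrane ligand of PLXNA4, read 7.33 and 7.21, then 6.89 and 6.76 (-0.45, SE 0.147, adjusted p = 0.21). SEMA5A, which carries thrombospondin repeats, read 5.53 and 5.63, then 5.26 and 4.83 (-0.54, SE 0.183, adjusted p = 0.22), and it was -0.32 without miR204 array 2 and -0.75 without miR204 array 1. After quantile normalization SEMA4D, SEMA6B and SEMA7A no longer had an unadjusted p under 0.05. SEMA5B was lower on both inhibitor arrays as well (-0.30, SE 0.183), and SEMA6A, SEMA6C and SEMA6D overlapped, with differences from -0.05 to 0.10.

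Class A plexins, the signalling partners of class 3 and class 6 semaphorins, were all lower on both inhibitor arrays in the deposited values (4 of 4, with 33.8% of features lower without overlap), but PLXNA2 turned to 0.14 after quantile normalization or cyclic loess and 0.05 with equal array medians. PLXNA4 read 4.85 and 4.99 in the controls, against 4.20 and 4.08 with the inhibitor. The means were 4.92 ± 0.099 and 4.14 ± 0.0849 (SD, n = 2 per group), a difference of -0.78 (SE 0.147, 95% interval -1.13 to -0.43, unadjusted p = 0.0012, adjusted p = 0.14), 1.72-fold lower. With the intensity trend it passed (adjusted p = 0.046, span 0.046 to 0.35) and stayed between -0.85 and -0.71 without any 1 array. PLXNA3 (3.91 and 4.03, then 3.27 and 3.78) gave -0.45 (SE 0.199, adjusted p = 0.30) and PLXNA1 (7.21 and 7.32, then 7.02 and 7.11) gave -0.20 (SE 0.144). PLXNA2 read 7.16 and 7.15, then 7.14 and 7.13, so its groups did not overlap but nearly touched.

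The other plexins had no member at an unadjusted p under 0.05. PLXNB2 (7.37 and 7.41, then 7.28 and 7.15) was lower by -0.18 (SE 0.143) and by 0.00 with cyclic loess, and PLXNB1 (-0.22, SE 0.197) and PLXNB3 (0.12, SE 0.179) overlapped between groups. PLXNC1, the receptor of SEMA7A, read 4.45 and 4.74 in the controls, against 4.95 and 4.75 with the inhibitor (0.26, SE 0.168, adjusted p = 0.46), a difference that moved to 0.11 when control array 1 was left out and to 0.40 when control array 2 was. PLXND1, the receptor of SEMA3E on endothelial cells, read 4.39 and 4.08, then 4.46 and 4.15 (0.07, SE 0.183, 95% interval -0.36 to 0.50).

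For 10 pairs of a ligand and a receptor it is known to bind, the values were set side by side. The pairs hold only ligands that were lower, while over all 27 ligands 7 were higher and 20 lower (74.1%, against 59.5% of features). The receptor was lower in 5 pairs and higher in 5. In 2 pairs both partners had an unadjusted p under 0.05. SEMA6B (-0.45) and PLXNA4 (-0.78) were both lower, whereas EFNA5 (-0.56) was lower and EPHA5 (0.58) higher. EPHB1 (-1.03) stood beside EFNB1 (-0.27), which did not pass, and SEMA3E (-0.76), SEMA5A (-0.54) and SEMA7A (-0.45) stood beside receptors with differences of 0.07, 0.12 and 0.26. The pairs were chosen with these values known, and the difference between partners was not tested.

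**Figure D3:**
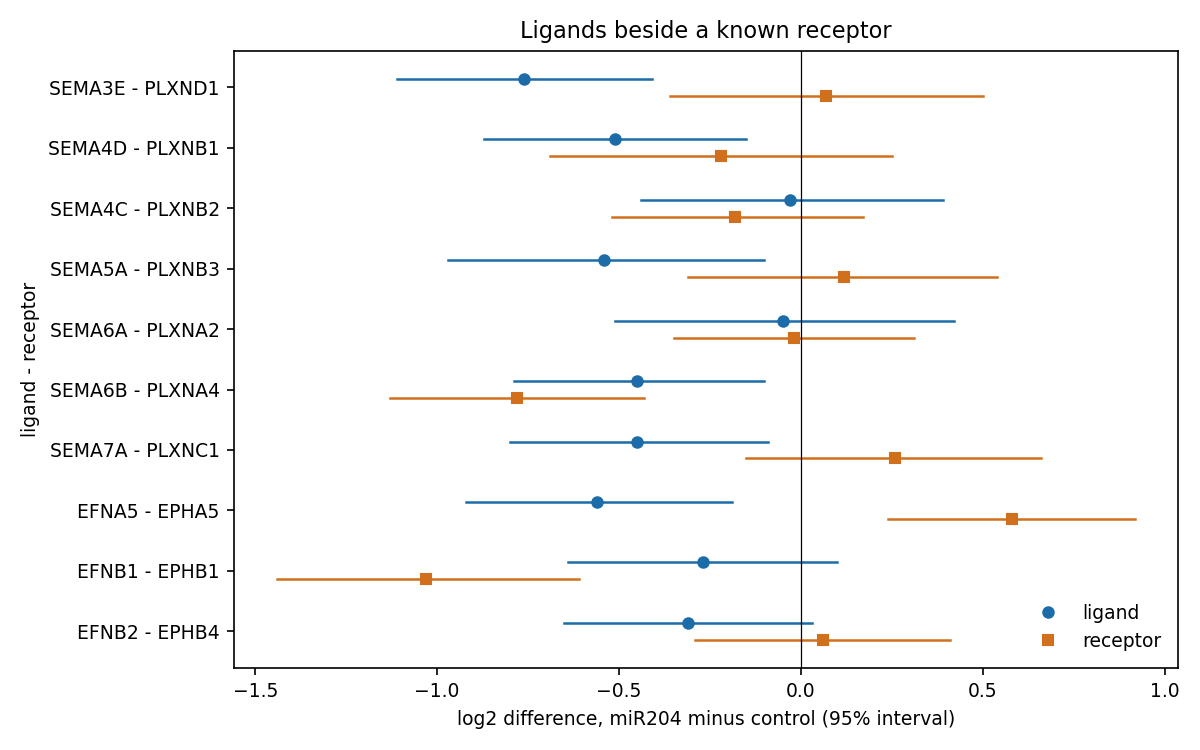
Log2 difference between miR204 and control arrays with its 95% interval (x axis) for the ligand (circle) and a known receptor (square) of 10 pairs (y axis), with n = 2 arrays per group. The 10 ligand points lie left of 0, from -0.03 for SEMA4C to -0.76 for SEMA3E, but the pairs hold none of the 7 ligands of 27 that were higher, and 5 receptor points lie to the right of 0.

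The co-receptors and effectors around these families were read from a list of 64 genes, of which 58 were measured. At an unadjusted p under 0.05, 2 were higher and 8 lower (17.2%, against 17.9% of features), 0 passed over all features, and the list's median was -0.11. NRP2, the neuropilin for SEMA3F and SEMA3C and for lymphatic growth factors, read 8.71 and 8.79 in the controls, against 8.13 and 8.06 with the inhibitor (-0.66, SE 0.141, unadjusted p = 0.0026, adjusted p = 0.15). NRP1, the neuropilin for SEMA3A, read 8.53 and 8.74, then 8.61 and 8.45, with overlap (-0.11, SE 0.156, and 0.10 after quantile normalization). NRP2 passed with the intensity trend (adjusted p = 0.0052), within a span of 0.0052 to 0.32.

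RND3, an effector of plexin signalling that loosens the actin skeleton, had the largest difference of that list. It read 8.30 and 8.46 in the controls, against 9.36 on both inhibitor arrays, a difference of 0.98 (SE 0.145, unadjusted p = 3.0e-04, adjusted p = 0.12). ROCK1, a kinase that drives actin contraction and that RND3 is known to bind, read 7.29 and 7.37, then 6.75 and 6.82 (-0.55, SE 0.141, adjusted p = 0.17). The tyrosine kinases ABL1 (8.06 and 8.14, then 7.42 and 7.61) and ABL2 (7.97 and 8.14, then 8.52 and 8.51) differed in opposite directions, by -0.59 (SE 0.149, adjusted p = 0.17) and 0.46 (SE 0.146, adjusted p = 0.21). DPYSL3, a collapsin response mediator, read 7.47 and 7.64, then 7.18 and 6.75 (-0.59, SE 0.187, adjusted p = 0.21), and it was -0.38 without miR204 array 2 and -0.81 without miR204 array 1. With the intensity trend each of these 5 passed, at adjusted p-values of 3.6e-04 (RND3), 0.031 (ROCK1), 0.016 (ABL1), 0.03 (ABL2) and 0.041 (DPYSL3). The count of 10 partners was 3 without control array 2, where 4.31% of all features were called, against 17.9% with all 4 arrays.

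Slits, netrins, repulsive guidance molecules and their receptors, a list of 26 measured genes, gave 3 higher and 2 lower at an unadjusted p under 0.05 (19.2%, against 17.9% of features) and 0 over all features, with a median of -0.06.

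**Figure D4:**
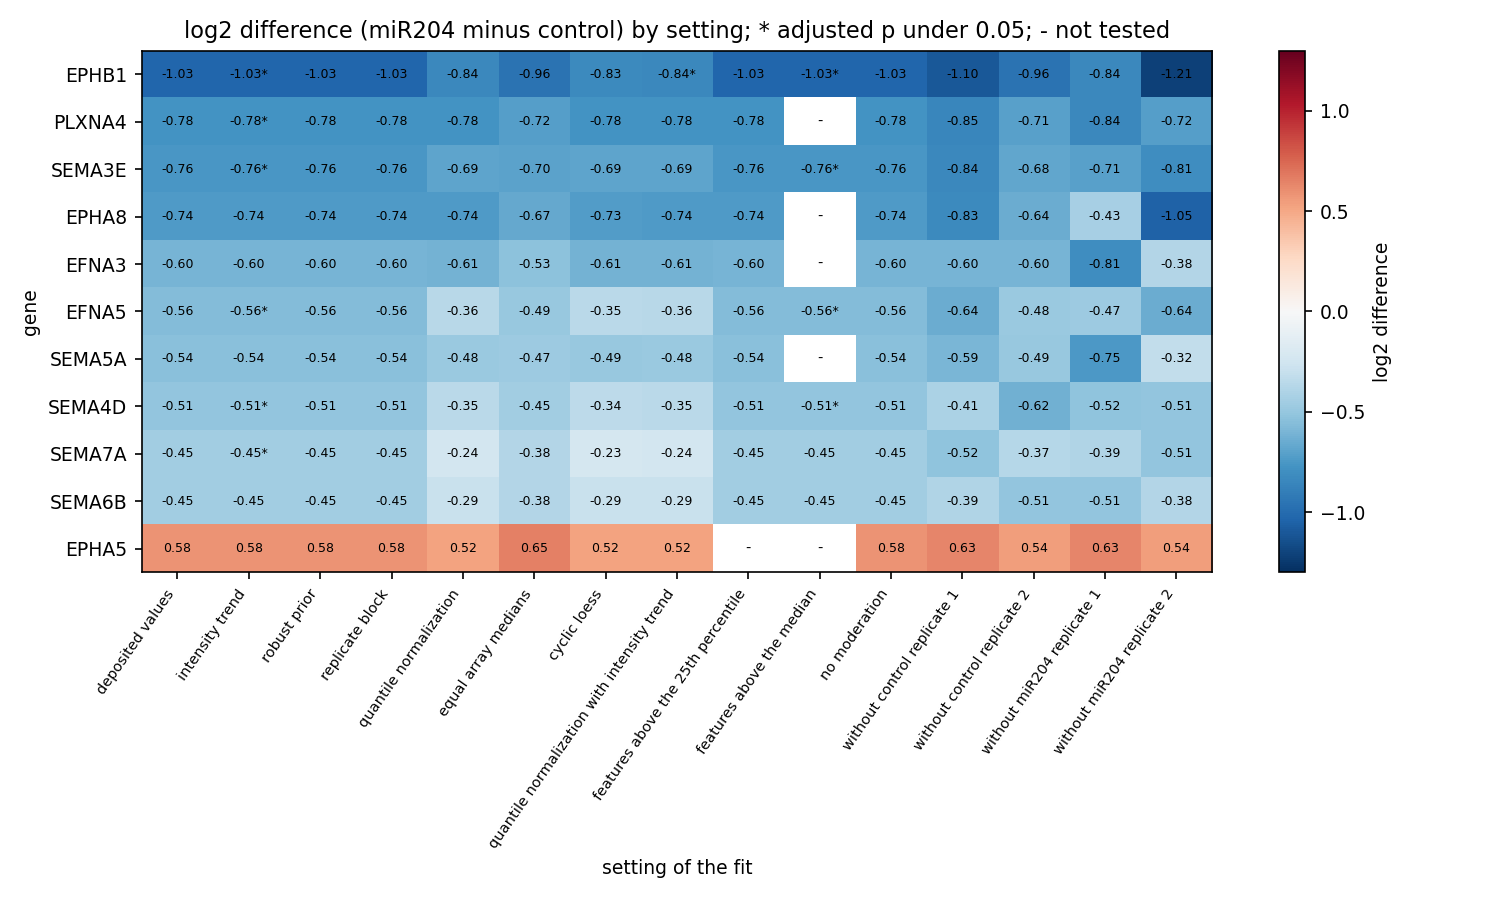
Log2 difference between miR204 and control arrays (colour and printed value) for the 11 members with an unadjusted p under 0.05 (y axis) under 15 settings of the fit (x axis), with a star where the adjusted p was under 0.05 and a dash where the feature was left out by a filter. All 11 keep their direction, which only the rescalings could have changed. Stars mark 6 with the intensity trend, 4 over features above the median, and EPHB1 with quantile normalization and trend.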

How the data were processed

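Total RNA of 4 HeyA8-MDR samples was measured on 1-colour Affymetrix Human Clariom S arrays. Per the submitters' processing notes, the authors used RMA, which corrects background, quantile-normalizes and summarises probes, in Transcriptome Analysis Console 4.0, and they deposited log2 values. Its parameters, the genome build and detection calls are not given in the sources used here. Some dim features may be undetected ones.

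Symbols came from the platform annotation, with 17709 of 21448 features having 1 symbol, 0 several and 3739 none. The brightest feature stood for a symbol, and 2 further Eph receptors are not reported here. The comparison used lmFit and eBayes of limma 3.58.1 (R 4.3.3) over all features without a replicate block. The test was two-sided with 2 residual and 4.78 prior degrees of freedom, intervals were at the 95% level, and the adjustment was Benjamini-Hochberg. Exact permutation of 2 against 2 arrays cannot go below p = 0.333 and was not used. Simulated sets with 200 changed features among 21448 were run through the same fit, 5 for each size of change. Of features changed 2-fold, 0% had an adjusted p under 0.05 and 96.7% an unadjusted p under 0.05. At 4-fold these shares were 97.4% and 99.9%. Of the unchanged features, 4.97% and 5.03% had an unadjusted p under 0.05. The number of arrays limits the precision.

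The 4 families that set the members, the lists, the pairs and the motifs were chosen with earlier results of these data known. Within the families each measured gene was taken by its symbol, apart from the 2 Eph receptors not reported here. Named in full were members with an unadjusted p under 0.05 and no overlap, the extremes of each family, the neuropilins, binding partners and 6 list genes by moderated statistic. The 14 other settings were an intensity trend, a robust prior, the replicate block, 3 rescalings (quantile, equal medians, cyclic loess), quantile with trend, 2 filters on dim features, no moderation and leaving out each array. RefSeq matched 48 members by symbol and 43 promoters.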

Additional observations from a re-analysis of the deposited data

How the results depend on the processing

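All 11 members with an unadjusted p under 0.05 kept their direction in each of the 14 other settings that tested them. Most of this was fixed in advance, because the prior, block, moderation and filter settings leave the difference itself unchanged. Leaving out 1 array cannot reverse a member whose groups do not overlap, so only the rescalings could have changed a direction. Members past an adjusted p of 0.05 numbered 6 with the intensity trend, 4 over features above the median level, 1 with quantile normalization and trend together, and 0 in the remaining settings. The filter at the median level keeps 15 of the 48 members and 10715 features. Fewer p-values are then adjusted, and limma's prior is also fitted anew. The unadjusted p of EPHB1 in limma was 0.00013 there, against 0.00071 over all features. The part of each change was not tested. Members at an unadjusted p under 0.05 were 7 of 15 over features above the median level, where 31.6% of features were called, and 4 to 19 without 1 array. The median difference was -0.19 over features above the 25th percentile, -0.29 over features above the median level and -0.18 to -0.02 without 1 array. Partners at an unadjusted p under 0.05 numbered 16 with the intensity trend (22.2% of features) and 3 to 14 without 1 array (4.31% to 27.4%). NRP1 turned from -0.11 to 0.10 after quantile normalization, 0.11 after cyclic loess and 0.10 with quantile normalization and trend. Under at least 1 of the 3 rescalings the sign changed, or the value became 0.00, for 7 of 48 members, whose differences in the deposited values were at most 0.18 in size: EPHA1, EPHA6, PLXNA2, PLXNB2, SEMA4C, SEMA6A and SEMA6D.

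With the replicate number as a block, 12 members had an unadjusted p under 0.05 (15.0% of features) and 0 an adjusted one (0 features). Deviations of same-numbered arrays correlated at 0.00579, so the numbers gave no sign of pairing. Fits without 1 array have fewer degrees of freedom, and their lone array was taken to vary as much as the other group. The cause of the other shifts was not tested.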
